A study of Mus musculus with 5 samples.

Results

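The TAM family comprises the receptor tyrosine kinases Tyro3, Axl and Mertk and their secreted ligands Gas6 and protein S, which Pros1 encodes. These 5 genes were selected by name from the authors' table, and each matched 1 of the 23141 named loci. Both ligands carry a vitamin K-dependent domain that binds phosphatidylserine, a lipid exposed on dying cells, and bridge those cells to the receptors on a phagocyte. In the eye, Mertk on the retinal pigment epithelium drives the daily uptake of shed photoreceptor tips, and mice or rats without it lose their photoreceptors. On macrophages and dendritic cells the receptors clear dead cells and damp inflammatory signalling. Axl is also a described transcriptional target of YAP and TAZ, the coactivators that the kinases Lats1 and Lats2 hold in check.

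Tumors that arose in the eyes of adult AAV5-Cre;Lats1/2 fl/fl mice were profiled as 3 RNA-seq libraries, and normal uvea of adult wild-type animals as 2. The floxed alleles of both kinase genes are recombined by Cre brought in with an adeno-associated virus of serotype 5, and the promoter that drives Cre is not given in the sources used here. The series title calls the tumors uveal melanoma. The wild-type mice carried neither the virus nor the floxed alleles as far as the labels say, so effects of the virus and of the strain cannot be told apart from those of the deletion. Whether each library is a separate animal or a pool is not given in the sources used here. Each wild-type library held transcripts of both sexes (below), so neither reads as the RNA of a single animal. The p-values then cover only the spread between the libraries, which may be technical.

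Library totals lay between 12687703 and 14368272 estimated fragments. Lats1, the first targeted gene, was at 3.43, 3.90 and 2.94 FPKM (fragments scaled for transcript length and depth) in tumor libraries 1, 2 and 3, against 7.55 and 8.86 FPKM in wild-type libraries 1 and 2 (edgeR adjusted p = 0.012). Lats2 was at 12.6, 17.0 and 14.3 FPKM in tumors, against 20.0 and 20.2 FPKM in wild type (log2 fold change −0.62, edgeR adjusted p = 0.058). Xist, from the inactive X chromosome, was at 22.6 FPKM in tumor library 3 against 0.00792 and 0.00803 FPKM in tumor libraries 1 and 2, and both wild-type libraries held it together with the Y-linked Ddx3y, so the wild-type libraries held transcripts of both sexes. Tumor library 1 stood apart in skeletal muscle genes, with a summed 8730 FPKM over 9 markers, against 485 and 517 FPKM in tumor libraries 2 and 3 and 723 and 684 FPKM in wild type. The dissected wild-type tissue also held retinal pigment epithelium and photoreceptor RNA, which are not uveal: Rpe65, the visual cycle isomerase, was at 745 and 829 FPKM there.

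The promoters of the members that rose are shown because Axl is a described YAP target and YAP acts through TEAD proteins bound to DNA. The sequences are the 250 bases upstream of the RefSeq start site (GRCm38.p6), 5′ to 3′ on the gene's own strand, and capitals mark matches to the motifs GGAATG (TEAD) and GGGCGG (SP1) on either strand.
Axl: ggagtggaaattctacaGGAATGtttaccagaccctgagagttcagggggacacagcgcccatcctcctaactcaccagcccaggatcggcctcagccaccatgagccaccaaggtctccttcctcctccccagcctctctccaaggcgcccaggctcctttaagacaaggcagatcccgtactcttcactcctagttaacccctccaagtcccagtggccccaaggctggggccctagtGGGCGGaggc
Pros1: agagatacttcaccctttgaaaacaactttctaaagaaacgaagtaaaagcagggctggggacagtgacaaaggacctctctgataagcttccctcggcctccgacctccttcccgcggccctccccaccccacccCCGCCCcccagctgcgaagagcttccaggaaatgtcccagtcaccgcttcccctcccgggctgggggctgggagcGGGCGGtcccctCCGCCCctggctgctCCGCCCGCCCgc
The Axl sequence is the minus strand of chr7:25788734-25788983, and the Pros1 sequence is the plus strand of chr16:62854057-62854306. The Axl window held 1 TEAD match, 233 to 228 bases upstream of the start site, and 1 SP1 match 10 to 5 bases upstream. The Pros1 window held no TEAD match and 5 SP1 matches, of which the last overlaps the one before it. All 5 members had a window in the table. Those of Mertk and Tyro3 overlap transcribed sequence, since the authors' Mertk locus starts 91 bases before the RefSeq start site and the GENCODE gene of Tyro3 starts at 119797733, before its window, so these windows may not be the promoters in use. Among the 5 windows GGAATG was present only in that of Axl, while 12.6% of all 32851 windows of the same length held it. The AP-1 motif TGANTCA was in none of the 5 windows and in 6.75% of all windows. SP1 matches were present in all 5 windows (3 in Mertk, 3 in Tyro3 and 4 in Gas6) and in 32.7% of all windows. A match to 6 letters is a description of the sequence, and no binding was measured.

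The receptors changed in opposite directions. Axl rose in the tumors and Tyro3 and Mertk fell, while of the ligands Pros1 rose and Gas6 did not pass the test. Thus 4 of the 5 members changed, 2 in each direction, at an edgeR adjusted p under 0.05. Of all 15241 tested loci 34.1% changed (18.7% higher and 15.4% lower in tumors), so a change as such was common, and the members are described by its size and direction. DESeq2 called the same 4 members and 45.7% of loci. All 5 members passed the filter on low counts. RNA came from whole tissue, in which fewer cells of a type and less RNA per cell cannot be told apart.

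**Figure D1:**
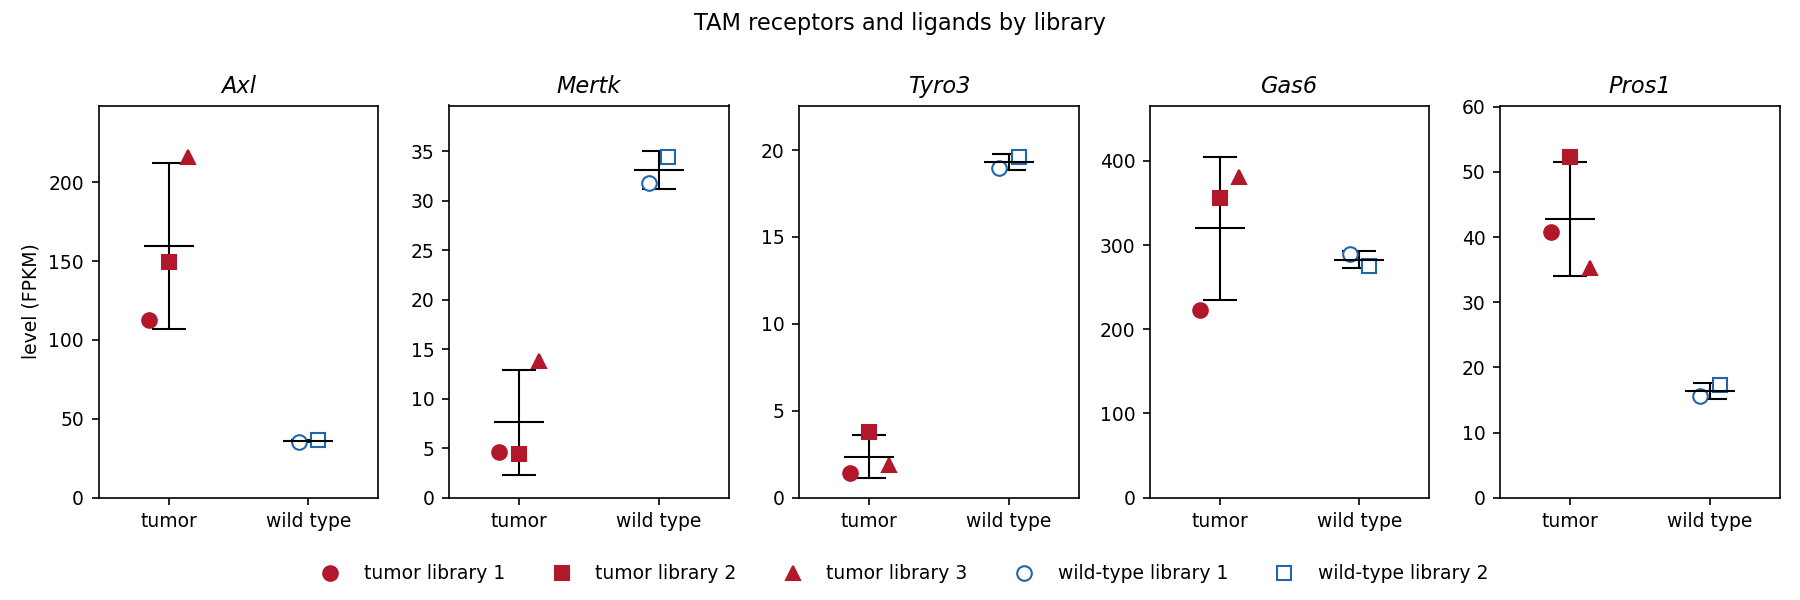
FPKM of each TAM receptor and ligand in 3 tumor libraries (filled red) and 2 wild-type libraries (open blue), with group mean and SD in black and a separate linear axis for each gene. Axl and Pros1 lie higher in every tumor library, Mertk and Tyro3 lower, and the Gas6 groups overlap.

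Axl encodes the receptor for which Gas6 is the ligand. It lies on chromosome 7 from 25756500 to 25788733 (mm10, minus strand), a protein-coding gene with up to 20 exons in GENCODE vM21. Its level was 113, 149.6 and 216 FPKM in tumor libraries 1, 2 and 3, against 35.4 and 36.3 FPKM in the wild-type libraries. Every tumor library stood above both wild-type libraries, as was true in one direction or the other of 70.0% of tested loci. The means were 159 ± 52.4 FPKM in tumors (SD, n = 3) and 35.9 ± 0.653 FPKM in wild type (SD, n = 2). The edgeR log2 fold change was 2.20 (SE 0.35, adjusted p = 0.014), a 4.59-fold difference with a 95% interval from 2.47 to 8.51. It stood at the 90.6th percentile of log2 fold change among tested loci. Axl passed in edgeR without any 1 of the tumor libraries, at 1.91 to 2.40. Without wild-type library 1 or 2 it did not pass (edgeR adjusted p = 0.13 each), and in those fits no member and no other locus did.

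Tyro3, the receptor best known from the nervous system, had the largest fall among the members. It lies on chromosome 2 from 119799514 to 119818103 (plus strand, up to 20 exons). Its level was 1.41, 3.78 and 1.90 FPKM in tumor libraries 1, 2 and 3, against 19.0 and 19.6 FPKM in wild type. Even tumor library 2, the highest of the tumors, lay far under both wild-type libraries. The means were 2.36 ± 1.25 FPKM in tumors (SD, n = 3) and 19.3 ± 0.451 FPKM in wild type (SD, n = 2). The edgeR log2 fold change was −2.98 (SE 0.44, adjusted p = 0.012), at the 5.28th percentile of tested loci. It kept its sign and its call without any 1 of the tumor libraries, at −3.53 to −2.71.

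Mertk, the receptor of phagocytosing pigment epithelium and macrophages, fell as well, with a wider spread. It lies on chromosome 2 from 128698824 to 128803206 (plus strand, up to 19 exons). Its level was 4.62, 4.44 and 13.8 FPKM in tumor libraries 1, 2 and 3, against 31.8 and 34.4 FPKM in wild type. Tumor library 3 held 3.10 times as much as the lowest tumor library and still lay below both wild-type libraries. The means were 7.61 ± 5.33 FPKM in tumors (SD, n = 3) and 33.1 ± 1.89 FPKM in wild type (SD, n = 2). The edgeR log2 fold change was −1.92 (SE 0.53, adjusted p = 0.047), with a 95% interval from −3.29 to −0.55. This call was close to the threshold: it ended without tumor library 1 (−1.68, adjusted p = 0.10) or tumor library 2 (−1.71, adjusted p = 0.061), and became firmer without tumor library 3 (−2.63, adjusted p = 0.0042). It also ended when low-count loci were kept in the test (adjusted p = 0.052). DESeq2 called it over all 5 libraries (−1.96, adjusted p = 0.0032).

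Mertk was the only member whose fragments per FPKM differed between libraries by more than 1%. This quotient of the authors' scaled fragments and FPKM, which follows the transcript length they estimated, was 60.9, 58.6 and 56.4 in the tumor libraries and 52.1 and 52.0 in wild type. The authors' table gives Mertk 2 start-site groups and the other members 1 each. The log2 fold change of Mertk was −1.92 with edgeR and −2.12 with voom on counts, and −2.15 on log2(FPKM + 1) and −2.31 on log2(FPKM + 0.1) with limma-trend. Antisense gene Gm14011 lies within the Mertk locus, and whether its exons overlap those of Mertk was not checked. Where they do, reads of the pair could not be told apart, as the strand setting is not given in the sources used here.

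Axl was the most abundant receptor in both tissues, and its share was larger in the tumors. Axl made up 94.9%, 94.8% and 93.2% of the summed receptor FPKM in tumor libraries 1, 2 and 3, against 41.1% and 40.2% in wild type. Mertk made up 3.89%, 2.81% and 5.94% in tumors, against 36.9% and 38.1% in wild type. Tyro3 made up 1.19%, 2.40% and 0.820% in tumors, against 22.0% and 21.7% in wild type. In wild-type tissue Axl and Mertk were thus near each other, and in tumors Axl was 15.7 to 33.7 times as high as Mertk. The summed receptor FPKM was 119, 158 and 232 in tumors and 86.2 and 90.4 in wild type.

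**Figure D2:**
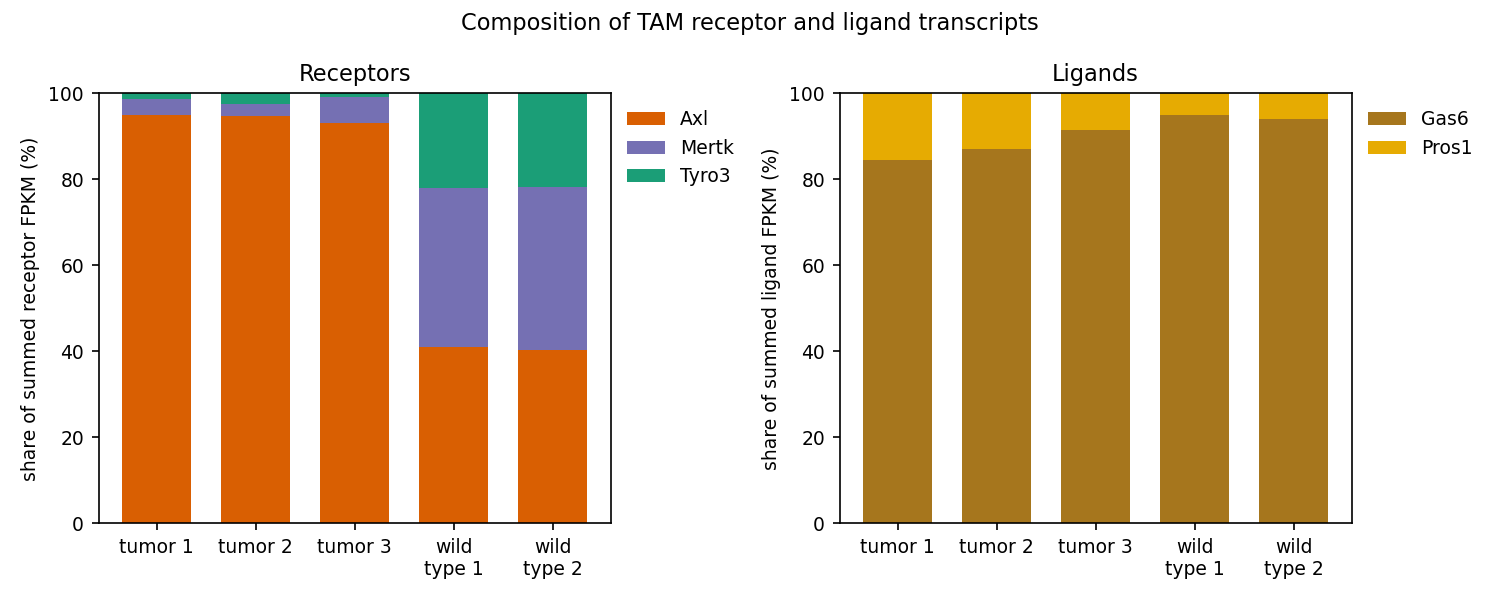
Share of each receptor in the summed FPKM of Axl, Mertk and Tyro3 (left) and of each ligand in that of Gas6 and Pros1 (right), as stacked bars in percent for 3 tumor and 2 wild-type libraries. Axl fills over 93% of the receptor bar in each tumor and about 40% in wild type, and the Pros1 part of the ligand bar is larger in each tumor.

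The ratio of levels within a library does not depend on the scaling between libraries. The log2 ratio of Axl to Mertk was 4.55 ± 0.553 in tumors (SD, n = 3) and 0.12 ± 0.0563 in wild type (SD, n = 2). That of Axl to Tyro3 was 6.15 ± 0.776 in tumors and 0.89 ± 0.00741 in wild type. That of Gas6 to Pros1 was 2.88 ± 0.503 in tumors and 4.11 ± 0.162 in wild type. The groups did not overlap in any of these 3 ratios. In the ratios with Axl this had to follow, as Axl was higher and Mertk and Tyro3 lower in every tumor library. The separation of those ratios thus adds nothing to the results of the single members. How often other pairs of genes separate was not tested. Each difference gave p = 0.20 in a two-sided exact permutation test (0.20 adjusted over the 3 ratios). This is the smallest p that 3 against 2 libraries allow, so the test cannot decide whether a ratio differs, and the ratios are given as descriptions.

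Gas6, the ligand of all 3 receptors, was abundant in both tissues and did not pass. The gene occupies chromosome 8 from 13465374 to 13494535 on the minus strand, with 15 exons. Tumor libraries 1, 2 and 3 held 222, 356 and 381 FPKM, against 289.8 and 275 FPKM in wild type. Tumor library 1 lay below both wild-type libraries and the other tumors above them, so the groups overlapped. The means were 319.7 ± 85.2 FPKM in tumors (SD, n = 3) and 283 ± 10.3 FPKM in wild type (SD, n = 2). The edgeR log2 fold change was 0.23 (SE 0.30, adjusted p = 0.58), with a 95% interval of the fold from 0.691 to 1.98. Without tumor library 1 it was 0.43 in edgeR (adjusted p = 0.15) and 0.41 in DESeq2, which called it (adjusted p = 0.043). The last 3100 bases of the Gas6 locus overlap Tmem255b on the other strand, whose own locus held 22 to 178 fragments per library, against 7559 to 12139 for Gas6.

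Pros1 encodes protein S, an anticoagulant cofactor that also activates Tyro3 and Mertk. It lies on chromosome 16 from 62854334 to 62929340 (plus strand, up to 15 exons). Its level was 40.7, 52.3 and 35.2 FPKM in tumor libraries 1, 2 and 3, against 15.5 and 17.3 FPKM in wild type. All tumor libraries stood above both wild-type libraries. The means were 42.8 ± 8.73 FPKM in tumors (SD, n = 3) and 16.4 ± 1.25 FPKM in wild type (SD, n = 2). The edgeR log2 fold change was 1.43 (SE 0.23, adjusted p = 0.014), a 2.70-fold difference with a 95% interval from 1.80 to 4.04. It kept its call without any 1 of the tumor libraries, at 1.23 to 1.55. Gas6 still made up 84.5% to 91.5% of the summed ligand FPKM in tumors, against 94.1% and 94.9% in wild type.

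The order of the members by FPKM was the same within each group and differed between the groups. It was Gas6, Axl, Pros1, Mertk and Tyro3 from high to low in all 3 tumor libraries, and Gas6, Axl, Mertk, Tyro3 and Pros1 in both wild-type libraries. In tumors, Mertk and Tyro3 came close in library 2, at 4.44 and 3.78 FPKM, and their means differed by less than the SD of Mertk. Across libraries the highest Axl level, 216 FPKM in tumor library 3, also neared the lowest Gas6 level, 222 FPKM in tumor library 1. Among tested loci, Gas6 stood at the 98.2th percentile of FPKM in tumors and at the 97.9th in wild type. Axl stood at the 96.2th percentile in tumors and the 82.6th in wild type, and Pros1 at the 85.8th in tumors and the 66.5th in wild type. Mertk stood at the 47.3th percentile in tumors and the 81.2th in wild type, and Tyro3 at the 24.2th in tumors and the 70.4th in wild type.

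**Figure D3:**
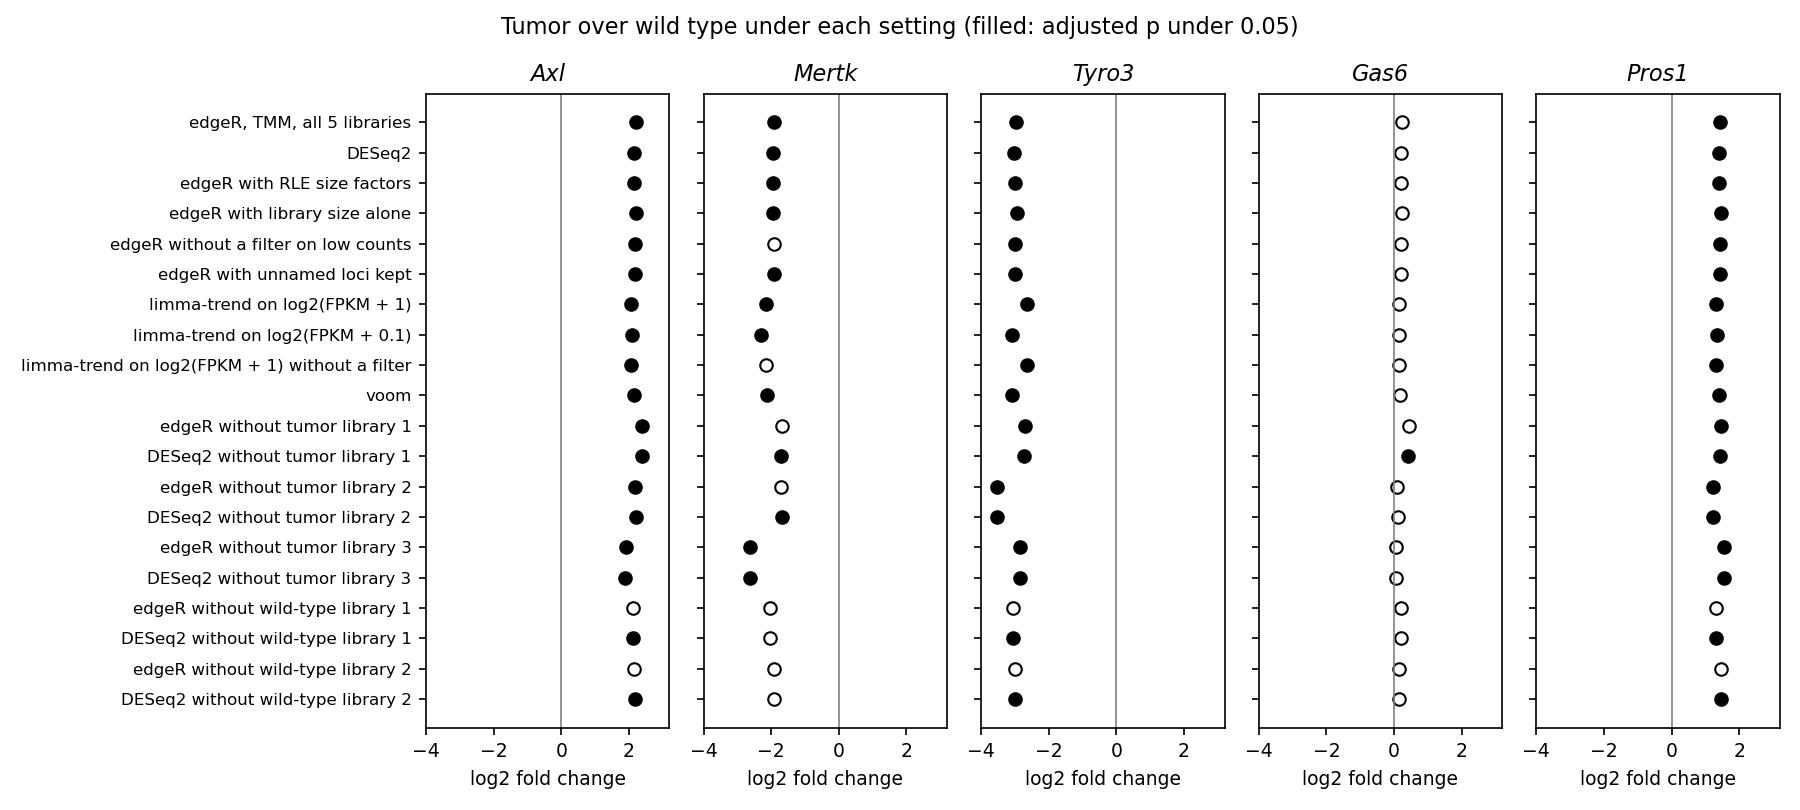
Log2 fold change of each member, tumor over wild type, under 20 settings (rows: test, scaling, filter or library left out), filled where the adjusted p was under 0.05. Each member keeps its sign in every row, Mertk loses its call in 8 rows, and the edgeR rows without a wild-type library hold no call.

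Further ligands of the family were lower or did not pass. Tulp1 and Tub, known in mice as retinal proteins that bridge photoreceptor debris to the receptors, both fell. Tulp1 was at 1.29, 3.16 and 0.624 FPKM in tumors, against 45.5 and 44.0 FPKM in wild type (edgeR log2 fold change −4.69, SE 0.67, adjusted p = 0.011). Tub was at 0.165, 0.578 and 0.068 FPKM in tumors, against 3.24 and 3.54 FPKM in wild type (−3.62, adjusted p = 0.035), and lost its call without tumor library 1. Lgals3, which encodes galectin-3, a macrophage lectin and Mertk ligand, was at 88.1, 128 and 303 FPKM in tumors, against 84.4 and 69.3 FPKM in wild type, and did not pass (1.22, adjusted p = 0.16).

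Other receptors and bridges for phosphatidylserine or dying cells included rises and falls. Of 22 tested loci 6 rose, 3 fell and 13 did not pass, near the 34.1% of all tested loci that changed (18.7% higher and 15.4% lower), with a median log2 fold change of 0.90, against 0.05 over all tested loci. The complement gene C1qa, whose product coats dying cells, rose to 1688 ± 699 FPKM in tumors (SD, n = 3), against 139 ± 17.2 FPKM in wild type (SD, n = 2), by 3.65 on the log2 scale (adjusted p = 0.0089). A neighbouring locus that holds C1qb and C1qc rose by 3.63 (adjusted p = 0.011). Itgav, the integrin subunit that with Itgb5 binds photoreceptor debris on the pigment epithelium, fell to 21.2, 27.3 and 20.6 FPKM in tumors, against 62.4 and 69.9 FPKM in wild type (−1.47, adjusted p = 0.010). The scavenger receptor gene Scarb1 also fell (−1.43, adjusted p = 0.018). Chosen after their values were seen, Itgb5 rose by 1.11 (adjusted p = 0.035) and Mfge8, the bridging ligand of that integrin, had a log2 fold change of 0.81 that did not pass (adjusted p = 0.077), though it passed with DESeq2 and without tumor library 1. C1q genes are macrophage genes as well and moved in the direction of that marker list.

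Of 18 tested genes of the engulfment machinery 4 rose, 1 fell and 13 did not pass, with a median log2 fold change of 0.17, where 34.1% of all tested loci changed (18.7% higher and 15.4% lower), so the count is near that background. The leukocyte exchange factor genes Vav1 and Dock2 rose by 3.87 (adjusted p = 0.0053) and 3.38 (adjusted p = 0.011), and Vav3, a relative of Vav1, rose by 1.52 (adjusted p = 0.017). Elmo2, a partner of Dock proteins, fell (−1.14, adjusted p = 0.022). DESeq2 called 5 falls in the list, and edgeR called 3 without tumor library 2 and 3 without tumor library 3. Myo7a, a motor of phagosome transport in the pigment epithelium, was singled out with its values known and stood at 2.13, 3.80 and 13.9 FPKM in tumors, against 33.2 and 35.3 FPKM in wild type. It did not pass in edgeR (−2.34, adjusted p = 0.081) and passed with DESeq2 and without tumor library 3.

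A few genes act on the ligands and receptors themselves. Of 5 tested genes 2 rose and 3 did not pass, beside 18.7% of all tested loci that were higher. Adam17, a protease that sheds Mertk from the cell surface, rose to 21.4, 21.2 and 28.2 FPKM in tumors, against 9.49 and 10.3 FPKM in wild type (log2 fold change 1.30, SE 0.19, adjusted p = 0.012). Vkorc1l1, of the vitamin K cycle, rose by 0.54 (adjusted p = 0.045), a call that ended without any 1 of the tumor libraries. Ggcx, the carboxylase that modifies both ligands, did not pass (−0.17, adjusted p = 0.43).

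Genes of TAM signalling and of its feedback on interferon signalling were also listed. Of 16 tested genes 8 rose, 2 fell and 6 did not pass, beside 18.7% of all tested loci higher and 15.4% lower, with a median log2 fold change of 0.97. Twist1, a transcription factor that acts below Axl in macrophages, rose to 78.1, 83.5 and 97.4 FPKM in tumors, against 11.0 and 12.3 FPKM in wild type (log2 fold change 2.94, SE 0.18, adjusted p = 0.0033). Socs3, an inhibitor of cytokine receptors, rose by 3.03 (adjusted p = 0.0054) and the kinase gene Fyn by 1.66 (adjusted p = 0.0095). Pik3r1, the regulatory subunit of phosphoinositide 3-kinase, fell (−0.99, adjusted p = 0.013). Named after their values were seen, the interferon receptor genes Ifnar1 and Ifnar2 rose by 1.39 (adjusted p = 0.016) and 1.06 (adjusted p = 0.019), and Socs1 rose by 2.11 (adjusted p = 0.045). Socs1 lost its call in voom, in edgeR and limma-trend without a filter on low counts, and in edgeR without tumor library 1. Many genes of this list are also induced by interferon or expressed by leukocytes, and their part in these changes was not tested.

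**Figure D4:**
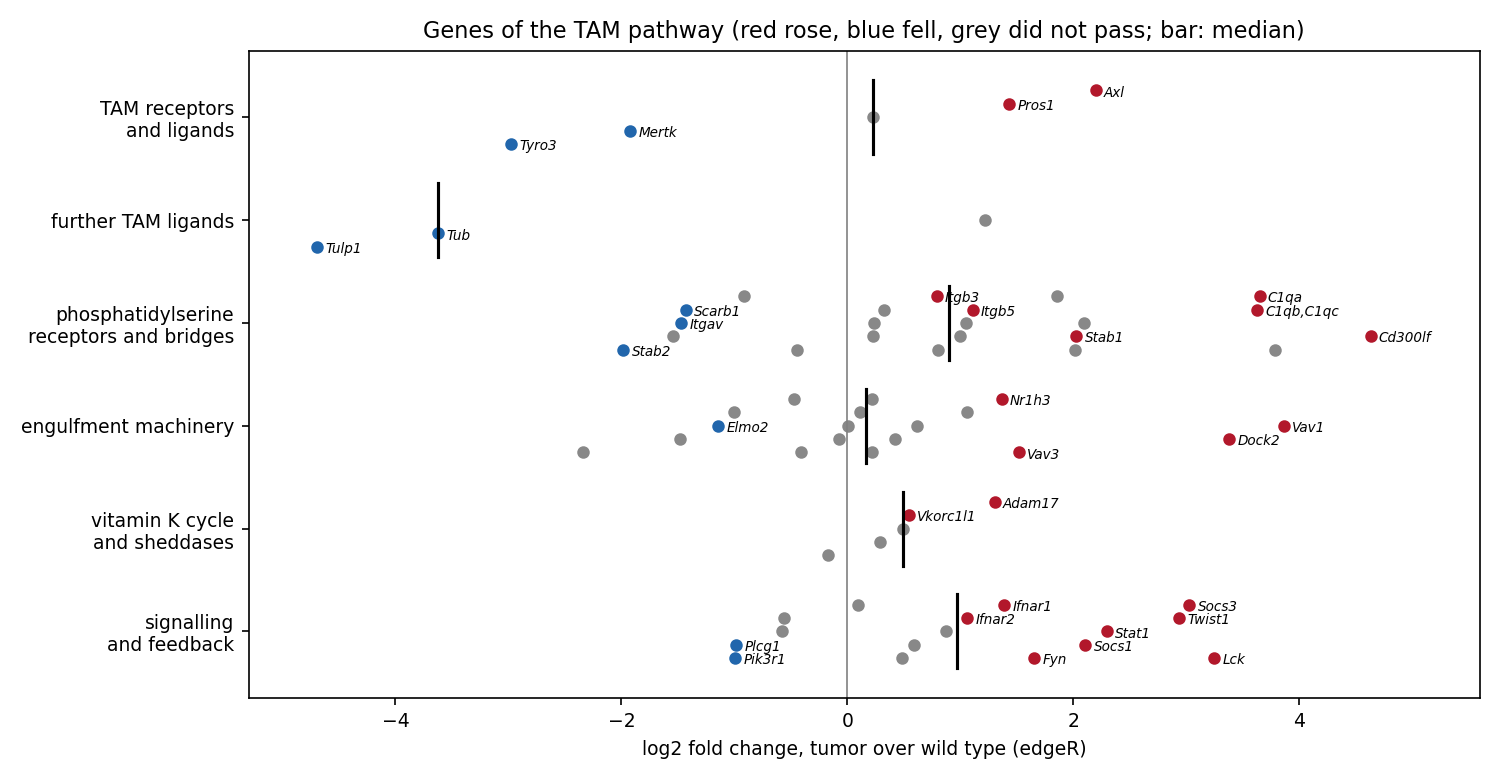
Log2 fold change (edgeR, tumor over wild type) of each tested gene of the TAM family and of 5 pathway lists, with risen genes in red, fallen in blue, genes that did not pass in grey and a black bar at each list's median. Rises and falls stand side by side in the receptor and bridge lists, and the signalling list has 8 rises and 2 falls.

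Among other described YAP and TAZ targets, Axl was in company of both directions. Of 21 tested targets besides Axl 8 rose, 3 fell and 10 did not pass, beside 18.7% of all tested loci higher and 15.4% lower, with a median log2 fold change of 0.89. Lats2, named with its values known, is counted among those that did not pass (−0.62, adjusted p = 0.058). It is itself a targeted gene, so its level cannot be read as that of a target alone. Ankrd1, which encodes a nuclear ankyrin repeat protein, was at 96.4, 69.4 and 62.0 FPKM in tumors, against 0.382 and 0.154 FPKM in wild type, and Rbms3 rose by 1.87 (adjusted p = 0.0094). Without tumor library 2, edgeR called 6 falls in this list. The coactivator genes, named with their values known, changed in opposite directions. Yap1 was at 24.4, 25.9 and 13.6 FPKM in tumors, against 52.4 and 55.6 FPKM in wild type (−1.29, adjusted p = 0.035). Wwtr1, which encodes TAZ, was at 23.4, 28.25 and 18.1 FPKM in tumors, against 13.5 and 13.8 FPKM in wild type (0.82, adjusted p = 0.049).

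Markers of leukocytes were higher in the tumors, as were Axl and Pros1, whereas Mertk and Tyro3 were lower. Beside the counts of this paragraph, 18.7% of all tested loci were higher in tumors and 15.4% lower. The 8 dendritic cell markers are too few to set their count apart from those shares. Of 16 macrophage markers 13 rose and 0 fell, and their summed level was 4470, 2465 and 10019 FPKM in tumor libraries 1, 2 and 3, against 666 and 693 FPKM in wild type. The chemokine receptor gene Cx3cr1 rose by 4.78 (adjusted p = 0.0029) and the Fc receptor gene Fcgr1 by 4.71 (adjusted p = 0.0045). Among the tumor libraries, Axl, Mertk, Gas6 and Lgals3 were each highest in library 3, where this sum was highest too, while Mertk was higher still in wild type. Library 3 also differed from the other tumor libraries in sex, by Xist and Ddx3y, and the part of sex was not tested. Pros1 was lowest in tumor library 3 (35.2 FPKM). The sum was higher in tumor library 1 than in library 2, whereas Axl, Gas6 and Lgals3 were lower in library 1 and Mertk was nearly equal. Of 8 dendritic cell markers 3 rose and 0 fell, among them Batf3 and Siglech, and 7 rose with DESeq2 and 5 without tumor library 2 or without tumor library 3. Of 16 tested lymphocyte genes 11 rose and 0 fell, among them Cd3g and the locus of Klrb1b and Klrb1c. Of 11 fibroblast markers 5 rose, among them Col3a1 and Postn, and 1 fell, which was called neither without tumor library 2 nor without tumor library 3, with a sum of 2811 to 4538 FPKM in tumors and 1862 to 2065 FPKM in wild type. The part of these cells in the rise of Axl and Pros1 was not tested.

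Markers of pigmented and photoreceptor cells were lower, at counts to be read beside the 15.4% of all tested loci that were lower in tumors. Of 12 retinal pigment epithelium markers 11 fell and 0 rose, with a sum of 227 to 261 FPKM in tumors and 17760.4 and 17947 FPKM in wild type. Much of the tumor sum was the locus shared by Rdh5 and Bloc1s1 (228, 176 and 213 FPKM), and Rpe65 was at 0.472, 5.97 and 0.686 FPKM in tumors. The retinol receptor gene Stra6 fell (−7.29, adjusted p = 0.0034). Pigment cell genes fell at 12 of 13 loci and rose at 0, among them Pmel (−9.77) and the lineage factor Mitf (−2.42), with a sum of 20.1 to 92.5 FPKM in tumors and 7106 to 7343 FPKM in wild type, and 15 of 16 photoreceptor genes fell, among them Pdc and Sag. No marker of these lists was at 0 in all tumor libraries. Among the tumor libraries alone, the melanocyte, photoreceptor and pigment epithelium sums were each highest in library 2, as was Tyro3. Mertk was nearly equal in libraries 1 and 2 (4.62 and 4.44 FPKM). Sox10, the pigment cell gene that did not pass, gave 49.1 of the 92.5 FPKM of the melanocyte sum in library 2. Rom1 gave 9.61 of the 20.0 FPKM of the photoreceptor sum there and was higher in library 1 (12.9 FPKM). The part of these cells in the falls of Mertk and Tyro3 was not tested.

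The remaining marker lists changed less evenly. Of all tested loci 18.7% were higher and 15.4% lower in edgeR, and DESeq2 called 45.7% in either direction. Beside those shares the small counts below are not read as changes of these cell types. Of 12 endothelial markers 3 fell, among them Emcn and Vwf, and 0 rose (6 fell with DESeq2 and 5 without tumor library 1). Of 16 genes of inner retinal neurons and Muller glia 4 fell, among them Slc6a9 and Glul, and 1 rose, while 14 fell without tumor library 2 and 7 with DESeq2. The 1 that rose, Thy1, is also among the fibroblast rises, and Rlbp1 is counted as a fall here and among pigment epithelium markers. Of 8 tested lens markers 2 fell, Bfsp2 and Lim2, and 5 fell without tumor library 2. Of 9 smooth muscle and pericyte markers 2 fell, Myh11 and Kcnj8, and 0 did without tumor library 2 or without tumor library 3. Of 9 Schwann cell markers 1 rose, Egr2, and 1 fell, S100b, a fall lost without tumor library 1 or 2, and 5 rose without tumor library 3. Of 9 skeletal muscle markers 0 passed in edgeR, while 2 rose with DESeq2 and 3 fell without tumor library 1. Of 4 tested platelet markers 2 rose, Pf4 and the locus of Gp1bb and Sept5, and 1 without tumor library 1 or without tumor library 3.

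**Figure D5:**
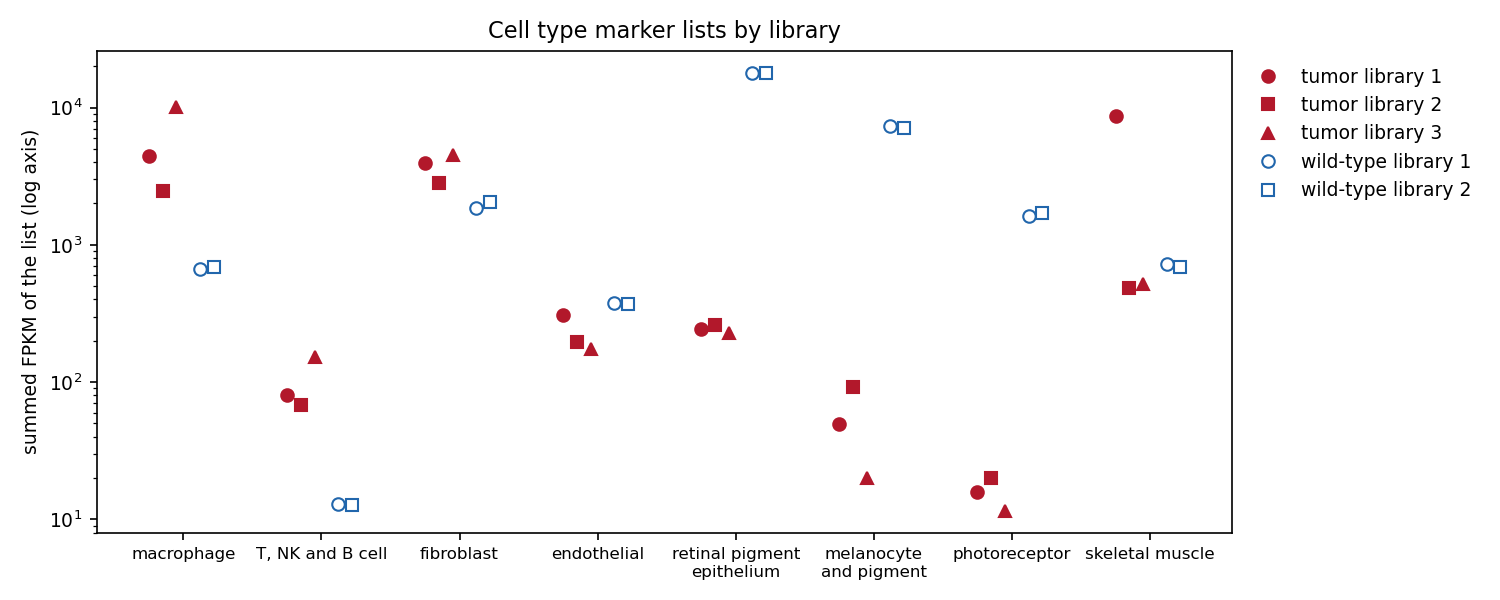
Summed FPKM (log axis) of 8 cell type marker lists in 3 tumor libraries (filled red) and 2 wild-type libraries (open blue). Macrophage and lymphocyte sums lie higher in every tumor library, pigment epithelium, pigment and photoreceptor sums lower, and tumor library 1 stands apart in skeletal muscle.

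The genes whose profile over the 5 libraries was closest to that of each member were found by the root mean square difference of log2 CPM, each gene centred on its own mean, among 9093 loci averaging 5 FPKM or more. Nearest to Axl were Ass1 (0.0684), an enzyme gene of arginine synthesis, Uba7 (0.0721), the activating enzyme of the ubiquitin-like protein ISG15, and Lpcat2 (0.0855), of platelet-activating factor synthesis. Ass1 was at 32.2, 44.6 and 58.3 FPKM in tumors, against 9.59 and 11.1 FPKM in wild type. Nearest to Mertk were Mansc1 (0.145), the inositol phosphatase gene Impa2 (0.183) and Cobll1 (0.191). Nearest to Tyro3 were the amino acid transporter gene Slc7a8 (0.138), the bicarbonate transporter gene Slc4a4 (0.176) and the cell junction gene Plekha7 (0.182). Slc7a8 was at 5.31, 12.6 and 8.80 FPKM in tumors, against 82.6 and 84.5 FPKM in wild type. Nearest to Gas6 on this count scale were Iqsec2 (0.0196), which did not follow it on the FPKM scale (11.6, 10.5 and 13.2 FPKM in tumors, against 10.8 and 10.6 FPKM in wild type), Plscr1 (0.0416) and the myelin gene Pmp22 (0.0424), and nearest to Pros1 were the stress factor gene Atf5 (0.0537), Tmem43 (0.0963) and the glycophorin gene Gypc (0.0999). Mertk and Tyro3 thus had less close neighbours than the other members, by this measure over 5 libraries. The measure is not scaled to the spread of a gene, so a wide spread alone can make neighbours less close. Among the members, the highest tumor library exceeded the lowest most for Mertk (3.10 times) and Tyro3 (2.68 times).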

How the data were processed

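Per the labels' protocols, total RNA of frozen tissue was taken up in Trizol and a TruSeq RNA kit served for the libraries. The submitters' processing notes name mm10 and the tools Cuffdiff, Cufflinks (2.2.1) and TopHat2 (2.0.9). Neither annotation nor strand setting is given in the sources used here. The authors deposited, per the file headers, unscaled estimated counts of fragments and FPKM values scaled between libraries, for each of 24768 loci and 5 libraries. Coordinates are the authors' loci, written 1-based.

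Estimated counts (98.6% to 98.7% within 0.01 of a whole number) were rounded. The 1627 unnamed loci, with 1.52% to 4.37% of fragments, stayed out of library sizes and tests. edgeR 4.0.16 (R 4.3.3) kept loci by filterByExpr (minimum count 10), scaled by TMM and fitted all 5 libraries together, tumor over wild type, with its quasi-likelihood F-test, two-sided, with Benjamini-Hochberg adjustment over all tested loci. "Rose" and "fell" mean an adjusted p under 0.05. Values with no tool named come from this edgeR fit. SEs were derived from the F statistic and the log2 fold change, and intervals use the t distribution with that SE. DESeq2 1.42.0, limma 3.58.1 and voom were alternatives. The edgeR, DESeq2 and voom fits were also run on simulated counts with the same spread in both groups. That run cannot show how they behave where the groups differ in spread, as they did here. Log2 CPM used a prior count of 2. Libraries are numbered in the table's order. Pairs of libraries of a group differed by a chi-square per degree of freedom of 5.21 (wild type) and 97.65 to 123 (tumors), more than sampling noise, so each was counted as a library. Such an excess does not show that libraries are biologically independent. The wild-type libraries were much more alike, and both held Xist (3.30 and 3.05 FPKM) and Ddx3y (8.60 and 10.7 FPKM). Whether they came from 1 pool was not tested.

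The members and gene lists were chosen with earlier results of these data known. Of each list, the text names called genes with the smallest p (up to 4 in pathway lists, 2 in others), all further TAM ligands, the 3 genes nearest to each member, and others only where said. Promoter sequences are from RefSeq (GRCm38.p6).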

Additional observations from a re-analysis of the deposited data

How the results depend on the processing

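Under all alternatives run for the 5 members, each log2 fold change kept its sign. Of 95 such values 80 stayed on the same side of the threshold, 14 lost the call and 1 gained it. With no filter on low counts, Mertk was at −1.93 in edgeR (adjusted p = 0.052) and, on log2(FPKM + 1), at −2.15 in limma-trend (adjusted p = 0.078). The cause was not tested. With each library left out in turn, edgeR gave 1.91 to 2.40 for Axl, −2.63 to −1.68 for Mertk, −3.53 to −2.71 for Tyro3, 0.07 to 0.43 for Gas6 and 1.23 to 1.55 for Pros1, with 0 to 6144 loci and 0 to 4 members changed. The counts of 0 are those without wild-type library 1 or 2 (unadjusted p under 0.05 at 4085 and 3996 loci), where the lone wild-type library is assumed to vary like the tumors. DESeq2 with each library left out was added after seeing the data. Without wild-type library 1 or 2 it called 2843 and 2798 loci, with Axl, Tyro3 and Pros1 among them and Mertk at −2.03 and −1.91 (adjusted p = 0.074 and 0.099), and without tumor library 1 it called Gas6 at 0.41 (adjusted p = 0.043). The differences in log2 ratio kept their sign in all 18 alternatives, at 4.17 to 4.72 (Axl to Mertk), 4.92 to 5.68 (Axl to Tyro3) and −1.50 to −1.01 (Gas6 to Pros1) with a library left out. Of 240 counts of list members, 83 moved by over 1.5 times, among them every count above 0 in edgeR without a wild-type library, and the inner retina list had 14 falls without tumor library 2. The share of calls higher in tumors, 2852 of 5201, was 2641 of 5739 with limma-trend on log2(FPKM + 1), 2491 of 5349 with voom and 1765 of 4257 with limma-trend and no filter. No paired analysis was possible because the table's replicate numbers are not tied to those of the labels. Depth did not limit the members, which had at least 76 fragments in each library.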
